A study of Mus musculus with 4 samples.

Results

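The 10 genes described here encode the NRF2 pathway's regulators and a pair of its targets in dendritic cells: the activators Nfe2l2 (NRF2) and Nfe2l1 (NRF1), the inhibitor Keap1, the repressors Bach1 and Bach2, the small MAF partners Mafk, Mafg and Maff, the adaptor Sqstm1 (p62) and the target Osgin1. They were listed by name, with earlier results of these data known. A gene was read from the probe set annotated with its symbol alone, and where there were several, from the one with the highest mean over the 4 arrays. All 10 had such a probe set and all 10 were among the 14652 genes tested.

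Dendritic cells, which present antigen to T cells, were grown from the bone marrow of C57BL/6 mice and harvested on day 7. In the sulforaphane group, 2 samples were kept for 2 h with 0.3 µM sulforaphane in DMSO, and in the control group 2 samples had DMSO alone. Both groups then received 100 ng/ml of Escherichia coli lipopolysaccharide (LPS), the ligand of TLR4, for 1 h, so every value below is from LPS-stimulated cells. The labels do not say whether replicates were separate mice or cultures, so p-values here reflect the spread among these particular samples, possibly a technical one.

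NRF2 is a basic leucine zipper factor of the cap'n'collar (CNC) family. KEAP1, an adaptor of a CUL3 ubiquitin ligase, holds it in the cytoplasm and has it degraded. Electrophiles such as sulforaphane modify cysteines of KEAP1, NRF2 then escapes degradation, enters the nucleus, pairs with a small MAF protein and binds antioxidant response elements (AREs). BACH1 and BACH2 pair with the same small MAF proteins on the same elements as repressors, and heme releases BACH1 from DNA. NRF2 is thus controlled largely at the protein level, which arrays do not measure.

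Arrays carried log2 signals on a common scale, with medians from 3.24 to 3.27. DMSO replicate 1 stood apart by its interquartile range of 3.41, against 3.61 to 3.62 on the other arrays. Of the dendritic cell markers, Itgax (11.26 to 11.33) and H2-Ab1 (11.37 to 11.81) lay among the brightest probe sets, above 99.3% and 99.7% of all. Others were dimmer, down to Flt3, which lay above 66.8%. The neutrophil marker Mmp8 (99.6%) and the macrophage marker Csf1r (99.2%) were about as bright, so these readings do not set the cell types apart. Across all genes, limma called 19 at an adjusted p under 0.05, 9 higher and 10 lower. The split leaned further towards lower genes with a second quantile normalization (34 higher, 72 lower), with probe sets averaged per gene (11 and 23) and with each array centred on the median of the genes tested (41 and 102). So it did with a filter at the 60th percentile (57 and 81) and an intensity trend (96 and 153). It was near even with every probe set (11 and 10), median centring (9 and 10), a replicate block (4 and 4), no filter (8 and 10) and a robust fit (8 and 10).

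After sulforaphane, the transcripts of NRF2 and NRF1 differed by less than the gap between the DMSO arrays and their groups overlapped, Osgin1 rose and Bach1, Mafg, Sqstm1, Keap1 and Mafk read higher on both sulforaphane arrays than on either DMSO array. Of the 10 genes, 1 passed the limma test over all genes, Osgin1, where 0.13% of all genes tested passed. In 6 of 10 the sulforaphane arrays lay above both DMSO arrays (24% of all genes tested) and in 1 of 10, Maff, below both (19.5%). At least 1.5-fold higher without overlap were 3 of 10, Osgin1, Bach1 and Mafg, against 1.32% of all genes tested. With 2 arrays in each group, the smallest two-sided p of an exact permutation test is 0.333, so only the fit across genes can give a call. In such bulk samples, fewer cells that carry a transcript and less of it per cell cannot be told apart.

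**Figure D1:**
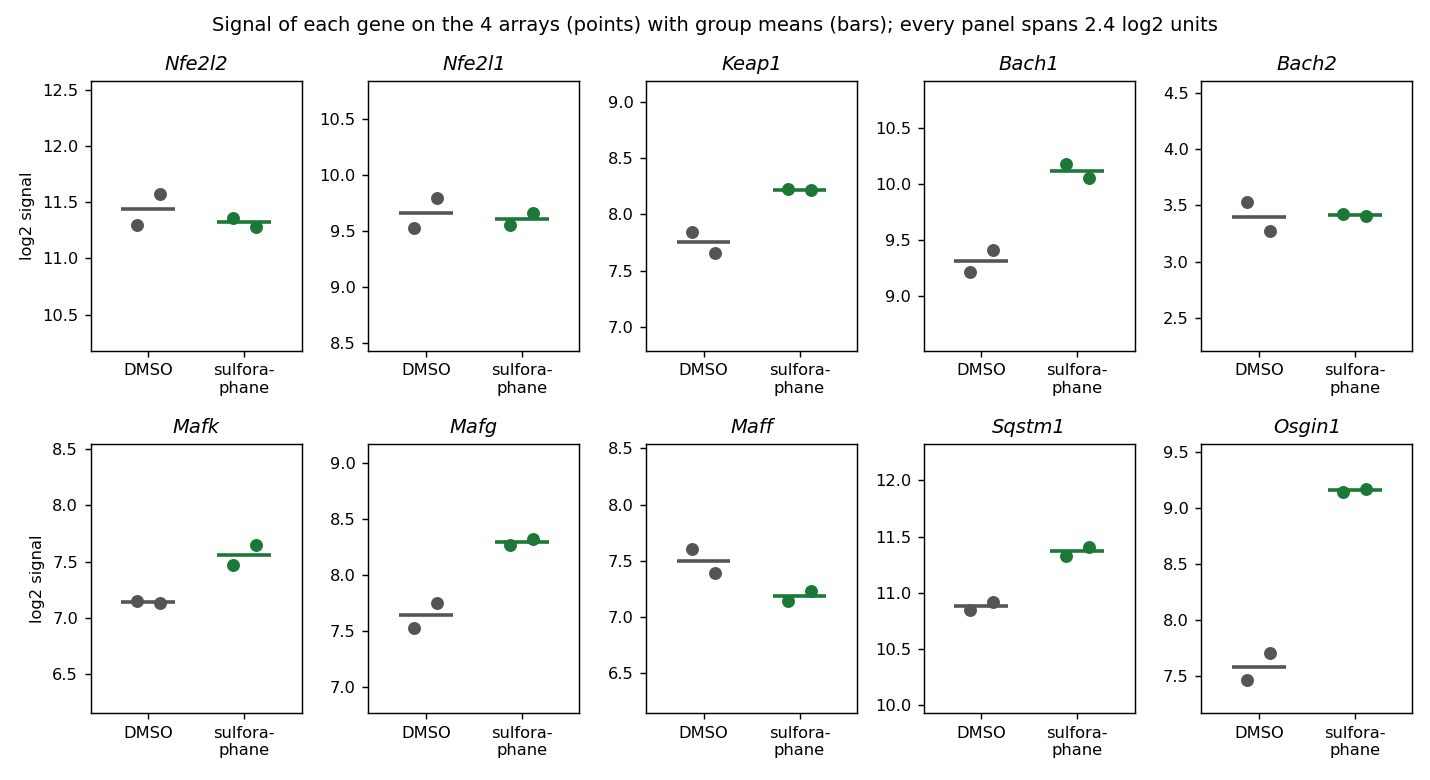
Log2 signal (vertical axis) of each of the 10 genes on the 2 DMSO and 2 sulforaphane arrays, with points for arrays and bars for group means; every panel spans the same number of log2 units around its own mean. Osgin1 has the widest separation between groups (1.44 between the nearest arrays), while the arrays of Nfe2l2, Nfe2l1 and Bach2 overlap.

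Of the activators, Nfe2l2, which encodes NRF2, read 11.30 and 11.57 on the DMSO arrays and 11.36 and 11.28 on the sulforaphane arrays. Its groups overlapped, and the DMSO arrays were further apart (0.27) than the group means (-0.11 ± 0.13 SE, 95% interval -0.44 to 0.21, adjusted p = 0.79). That interval leaves out a rise of more than 0.21 on the log2 scale. Its signal was above that of 99.4% of all probe sets, so the transcript was not near the dim end of the arrays. Leaving out single arrays moved the difference from -0.25 to 0.022, the latter without DMSO replicate 2.

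Nfe2l1 encodes NRF1, an endoplasmic reticulum-anchored relative of NRF2 that induces proteasome genes when released. It read 9.53 and 9.80 with DMSO and 9.56 and 9.66 with sulforaphane. Both sulforaphane values fell between the DMSO values, and the difference was -0.055 ± 0.13 SE (-0.38 to 0.27, adjusted p = 0.91). It ran from -0.19 to 0.081 with an array left out.

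Keap1, the inhibitor, read 7.85 and 7.66 on the DMSO arrays and 8.22 on each sulforaphane array. The sulforaphane arrays were thus almost equal and lay 0.37 above the nearer DMSO array. The difference of 0.47 ± 0.12 SE (1.38-fold, 0.18 to 0.76) did not pass over all genes (adjusted p = 0.20). Keap1 was the only member with 2 probe sets of its symbol alone. The dimmer one read 4.02 and 4.23 with DMSO and 3.92 and 4.32 with sulforaphane, a difference of -0.0036, and the mean of both gave 0.23. The higher reading of Keap1 therefore rests on the brighter probe set.

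Among the repressors, Bach1 had the largest difference of all members after Osgin1. BACH1 represses heme oxygenase and other ARE genes until heme binds it. Bach1 read 9.22 and 9.41 with DMSO and 10.18 and 10.05 with sulforaphane, so the groups were separated by 0.64. The difference was 0.80 ± 0.12 SE (1.74-fold, 0.50 to 1.10) with an adjusted p of 0.081, above the threshold. It passed under 4 of 14 other settings, where its adjusted p ran from 0.0082 to 0.44, and the difference stayed between 0.71 and 0.90 with single arrays left out.

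Bach2, best known for its role in B and T lymphocytes, read 3.53 and 3.28 with DMSO and 3.42 and 3.41 with sulforaphane. Its groups overlapped, with a difference of 0.011 ± 0.13 SE (-0.30 to 0.32, adjusted p = 0.99). Only 53.7% of all probe sets were dimmer on average, so Bach2 sat close to the array median and a difference in it may not be measurable here. Markers of B cells were dim too. Of 10 listed, 4 lay below the intensity filter, and over the 5 tested the mean log2 signal was 3.86 and 3.92 with DMSO and 3.46 and 3.87 with sulforaphane.

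The small MAF genes encode short bZIP proteins with no activation domain of their own, and the array gave them different readings. Mafg read 7.53 and 7.75 with DMSO and 8.27 and 8.32 with sulforaphane. Its groups were 0.52 apart, the DMSO arrays spread more than the sulforaphane arrays, and the difference was 0.66 ± 0.12 SE (1.58-fold, 0.35 to 0.96, adjusted p = 0.12). Mafk read 7.15 and 7.13 with DMSO and 7.47 and 7.65 with sulforaphane. Here the DMSO arrays were nearly equal and the difference was 0.42 ± 0.12 SE (1.33-fold, 0.13 to 0.70, adjusted p = 0.23). Maff went the other way, with 7.60 and 7.39 on the DMSO arrays and 7.14 and 7.23 on the sulforaphane arrays. Its difference was -0.31 ± 0.12 SE (1.24-fold lower, -0.61 to -0.011, adjusted p = 0.37), and the groups were only 0.16 apart. None of the 3 passed over all genes. The intervals of Mafg and Mafk lay above 0 and that of Maff below it, but the difference between the genes was not tested.

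Over the settings with an array left out, Mafg ran from 0.54 to 0.77, Mafk from 0.33 to 0.51 and Maff from -0.42 to -0.21. Each kept its sign under all 14 other settings.

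Promoters of the members were searched for the ARE core, TGACNNNGC, and for the AP-1 element, TGANTCA, on both strands. The windows were those of RefSeq (build GRCm38.p6), from 250 bases before to 50 after each start, and all 10 genes matched. The 2 motifs can overlap, since a core may contain an AP-1 element. The core was found in 4 of 16 member promoters (25%), against 12.4% of all 32851 promoters of that length, in Nfe2l2, Mafk, Mafg and 1 of 3 Maff promoters. The 4 matches are shown because they include all 3 small MAF genes, which read in different directions, and NRF2 itself, which overlapped between groups. Capitals mark the match, read 5′ to 3′ along the gene.
Nfe2l2 (chr2:75704875-75704913, minus strand): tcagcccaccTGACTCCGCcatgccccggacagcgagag
Mafk (chr5:139791503-139791535, plus strand): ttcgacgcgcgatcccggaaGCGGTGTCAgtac
Mafg (chr11:120633741-120633789, minus strand): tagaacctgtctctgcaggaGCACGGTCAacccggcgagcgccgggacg
Maff (chr15:79346489-79346537, plus strand): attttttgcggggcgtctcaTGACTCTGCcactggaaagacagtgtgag

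A match starts 240 bases before the Nfe2l2 start, 13 before that of Mafk, 222 before that of Mafg and 112 before that of Maff. The matches of Nfe2l2 and Maff lie on the gene's own strand and those of Mafk and Mafg on the other. A match is a description of letters and shows no binding. Of the genes with a match, Mafk and Mafg read higher, Maff lower and Nfe2l2 in between, so a match went with no single direction. The windows of Keap1, Bach1, Bach2, Nfe2l1 and Sqstm1 held neither set of letters.

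**Figure D2:**
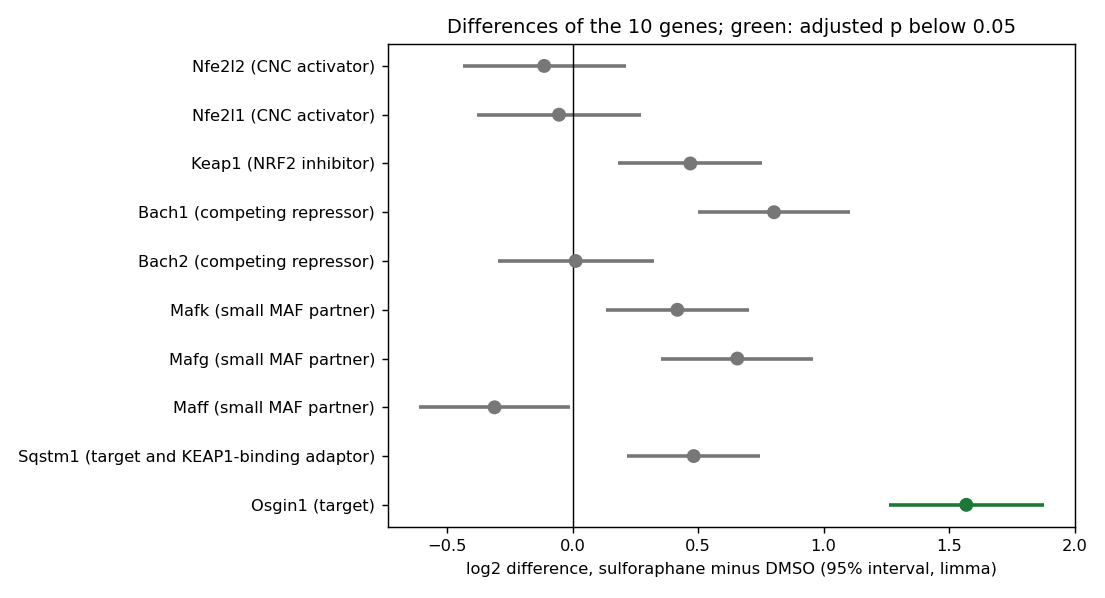
Log2 difference between the sulforaphane and DMSO arrays (horizontal axis) for each of the 10 genes, with points for the limma estimate, lines for its 95% interval and green for an adjusted p under 0.05. Osgin1 alone is green at 1.57, the intervals of Nfe2l2, Nfe2l1 and Bach2 span 0, and that of Maff ends at -0.011.

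Sqstm1 and Osgin1 are themselves targets of NRF2. SQSTM1 is a selective autophagy receptor that also binds KEAP1 and takes it into autophagosomes, which closes a loop back to NRF2. Its transcript read 10.85 and 10.92 with DMSO and 11.33 and 11.41 with sulforaphane. Replicates of each group lay within 0.081 of each other and the groups were 0.41 apart. The difference of 0.48 ± 0.11 SE (1.40-fold, 0.22 to 0.75) had an adjusted p of 0.17. It was the gene with the smallest SE among the 10, and with single arrays left out it ran from 0.44 to 0.52.

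Osgin1, an oxidative stress-induced growth inhibitor, rose 2.97-fold. It read 7.46 and 7.71 on the DMSO arrays and 9.14 and 9.17 on the sulforaphane arrays. The sulforaphane arrays were nearly equal, and the lower of them lay 1.44 above the higher DMSO array. The difference was 1.57 ± 0.13 SE (1.26 to 1.88, adjusted p = 0.032), and it ranked 7 among the 14652 genes by unadjusted p. With single arrays left out it was between 1.45 and 1.69, the lower value without DMSO replicate 1, but its adjusted p was then 0.060 to 0.18 and the call was lost, as it was for every gene: 0 genes passed in any of these 4 fits, while 1036 to 2850 had an unadjusted p under 0.05.

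The promoter of Osgin1 is shown because it is the member that passed the test. Its window held no match to the ARE core in the form searched, TGACNNNGC, and 1 AP-1 element, in capitals, 97 bases before the start. Other forms of the sites that CNC, BACH and MAF proteins bind were not searched, so their absence is not shown. An AP-1 element was found in 7.81% of all promoters and in 1 of the 16 of the members. The 250 bases before the start are chr8:119436897-119437146 of GRCm38.p6, plus strand.
Osgin1: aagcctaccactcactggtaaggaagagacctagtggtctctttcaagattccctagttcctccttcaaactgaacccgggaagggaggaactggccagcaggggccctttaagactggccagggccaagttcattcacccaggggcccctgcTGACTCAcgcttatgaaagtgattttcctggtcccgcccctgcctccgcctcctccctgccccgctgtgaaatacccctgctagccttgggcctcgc

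By Euclidean distance over the 4 arrays, after each gene was centred on its mean, the 5 genes most like Osgin1 were Panx1 (distance 0.17 log2 units), Slc40a1 (0.25), Frat1 (0.32), Eid3 (0.36) and Proz (0.36). Panx1 encodes a membrane channel, Slc40a1 the iron exporter ferroportin and Proz the plasma protein Z. Each of the 5 also passed the test as higher. Panx1, the nearest, read 7.12 and 7.30 with DMSO and 8.57 and 8.76 with sulforaphane. With so few arrays, the distance reflects little beyond the size of the group difference.

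**Figure D3:**
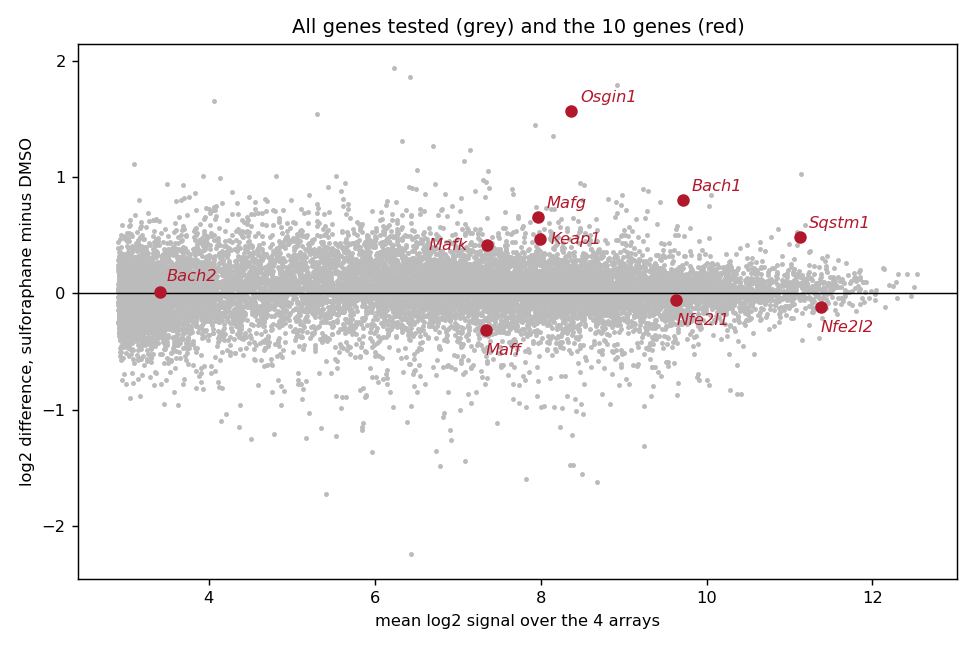
Mean log2 signal over the 4 arrays (horizontal axis) against the log2 difference between groups (vertical axis) for the 14652 genes tested in grey and the 10 members in red. Osgin1 and Bach1 stand above most genes of their brightness, Nfe2l2 and Sqstm1 are among the brightest genes, and Bach2 lies at the dim end.

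The targets that these factors control were read apart from them, from 45 listed genes of glutathione synthesis, redox defence, detoxification and iron handling that include none of the 10. Tested were 37, since 6 had no probe set of a single symbol and 2 were below the intensity filter. Their median difference was 0.35, against 0.018 over all genes tested. Both sulforaphane arrays lay above both DMSO arrays in 28 (24% of all genes tested) and below them in 2 (19.5%), and 10 were at least 1.5-fold higher without overlap (1.32%). Over all genes 1 of the 37 rose and 0 fell, where 0.13% of all genes tested passed. Of the 37, 20 had an unadjusted p under 0.05, against 1899 of the 14652 genes tested.

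Slc40a1 rose, with 7.98 and 8.06 on the DMSO arrays and 9.81 and 9.82 on the sulforaphane arrays. Hmox1, the heme oxygenase that BACH1 represses, read 10.54 and 10.70 with DMSO and 11.63 and 11.66 with sulforaphane, a difference of 1.03 ± 0.11 SE (adjusted p = 0.051). Gss, glutathione synthetase, read 6.97 and 6.69 against 7.80 and 7.97, a difference of 1.05 ± 0.14 (adjusted p = 0.058). Cbr3, a carbonyl reductase, read 5.10 and 5.88 against 7.45 and 7.25, a difference of 1.87 ± 0.25 (adjusted p = 0.059). In all 4 genes the groups were separate, and the DMSO arrays of Cbr3 spread most. The ferritin heavy chain Fth1 (-0.018) and the efflux pump Abcc5 (-0.020), named after their values were seen, lay near 0. The median of the list lay between 0.29 and 0.42 under all other settings.

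Genes listed for KEAP1 and NRF2 turnover centred close to the median of all genes. Of the 21 listed, among them Cul3, the scaffold of the KEAP1 ligase, 17 were tested. Limma called 0 of them and the median was 0.014. Of the 17, 1 had an unadjusted p under 0.05, against 1899 of the 14652 genes tested. Without overlap, 5 were higher and 5 lower, where 24% and 19.5% of all genes tested were. The widest readings were those of Trim21, a ubiquitin ligase also induced by interferon (-0.31 ± 0.11 SE, adjusted p = 0.34), and Syvn1, the ER ligase HRD1 (0.32 ± 0.13, adjusted p = 0.39). Palb2 (0.30) and the kinase Gsk3b (0.17) followed by p.

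For NRF1 processing and BACH1 turnover, 7 of 8 listed genes were tested, 0 were called and the median was 0.065. Of the 7, 0 had an unadjusted p under 0.05, against 1899 of the 14652 genes tested. Fbxw7, a ligase subunit that acts on NRF1, differed by 0.21 ± 0.12 SE, Fbxo22, which targets BACH1, by 0.11 ± 0.14, the glycosyltransferase Ogt by 0.095 and the segregase Vcp by 0.065. Other CNC and large MAF factors were dim or overlapped. Of 6 listed 4 were tested, with a mean signal between 4.40 and 4.67 on the 4 arrays, and 0 were called or had an unadjusted p under 0.05. Mafa read 0.39 higher with an SE of 0.26, Maf 0.088, Nfe2l3 0.0061 and Nfe2 -0.0023, and the groups of all 4 overlapped.

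Genes that work beside SQSTM1 in selective autophagy read mostly higher. Of 19 listed 18 were tested, 11 were higher and 2 lower without overlap (24% and 19.5% of all genes tested), and the median was 0.16 against 0.018 over all genes. Limma called 0, and 5 had an unadjusted p under 0.05, against 1899 of the 14652 genes tested. Gabarapl1, an ATG8 family protein that SQSTM1 can bind, read 9.31 and 9.39 with DMSO and 9.94 and 9.87 with sulforaphane (0.56 ± 0.11 SE, adjusted p = 0.13). Ulk1, the kinase that starts autophagy, read 8.69 and 8.48 against 9.17 and 9.37 (0.69 ± 0.13, adjusted p = 0.13). Map1lc3a differed by 0.46 ± 0.14 and Sesn1 by 0.35 ± 0.11, both with separate groups. The median lay between 0.10 and 0.18 under all other settings.

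**Figure D4:**
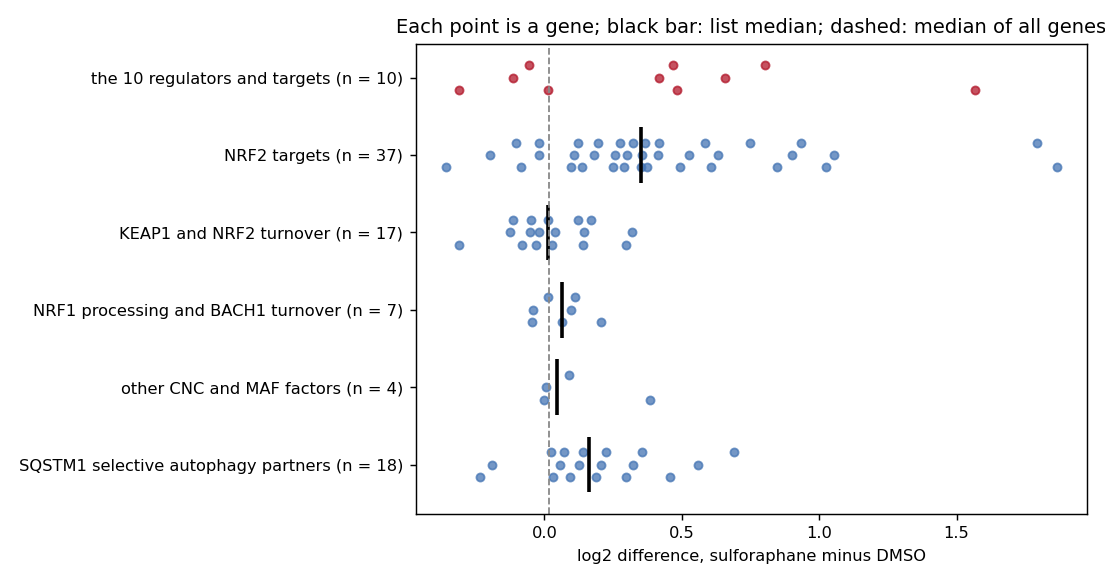
Log2 difference between groups (horizontal axis) for the 10 members in red and for the tested genes of 5 pathway lists in blue, with 1 point for each gene, a black bar for each list's median and a dashed line for the median of all genes. NRF2 targets sit at a median of 0.35 and autophagy partners at 0.16, while turnover genes centre on 0.014.

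Among the marker lists, those of macrophages and monocytes and of mast cells and basophils had a lower mean on both sulforaphane arrays and a median difference below 0. The mean log2 signal of 15 macrophage and monocyte markers was 7.76 and 7.78 with DMSO and 7.52 and 7.59 with sulforaphane, with a median difference of -0.12. Without overlap, 7 of them were lower and 0 higher, where 19.5% and 24% of all genes tested were. For 8 mast cell and basophil markers the mean was 7.31 and 7.24 against 7.02 and 7.16, with a median difference of -0.069. Of these 8, 4 were lower and 0 higher without overlap (19.5% and 24% of all genes tested). The lowest were Hdc (-0.61) and Gata2 (-0.57), followed by Ms4a2 (-0.11), and 1 of the 8, Cpa3 (0.015), was above 0. These genes were named after their values were seen. The 17 dendritic cell markers were mixed. Their mean was 8.94 and 9.05 against 8.76 and 8.81, but the median difference was 0.011, with 9 above 0 and 8 below. Without overlap, 8 were lower (19.5% of all genes tested), with Irf4 (-0.87) and Cd80 (-0.87) lowest. Higher were 3 (24%), H2-Ab1 (0.26), H2-Aa (0.16) and Itgax (0.066). These 5 were named after their values were seen. Limma called 0 genes in each of the marker lists. The 12 neutrophil markers overlapped in their mean (9.21 and 9.47 against 9.44 and 9.30). Of them 1 was lower and 1 higher without overlap (19.5% and 24% of all genes tested). The mean of the 4 tested T and NK cell markers lay near the array median (3.28 and 3.31 against 3.22 and 3.31). Of these, 2 were lower and 0 higher without overlap (19.5% and 24% of all genes tested). The 5 tested B cell markers, also dim, overlapped in their mean (3.86 and 3.92 against 3.46 and 3.87). Their median difference was -0.27, or -0.0068 without sulforaphane replicate 1. Of them 2 were lower and 0 higher without overlap (19.5% and 24% of all genes tested). No marker is at 0, since the authors' values have none. The part of these differences in the readings of the 10 genes was not tested.

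**Figure D5:**
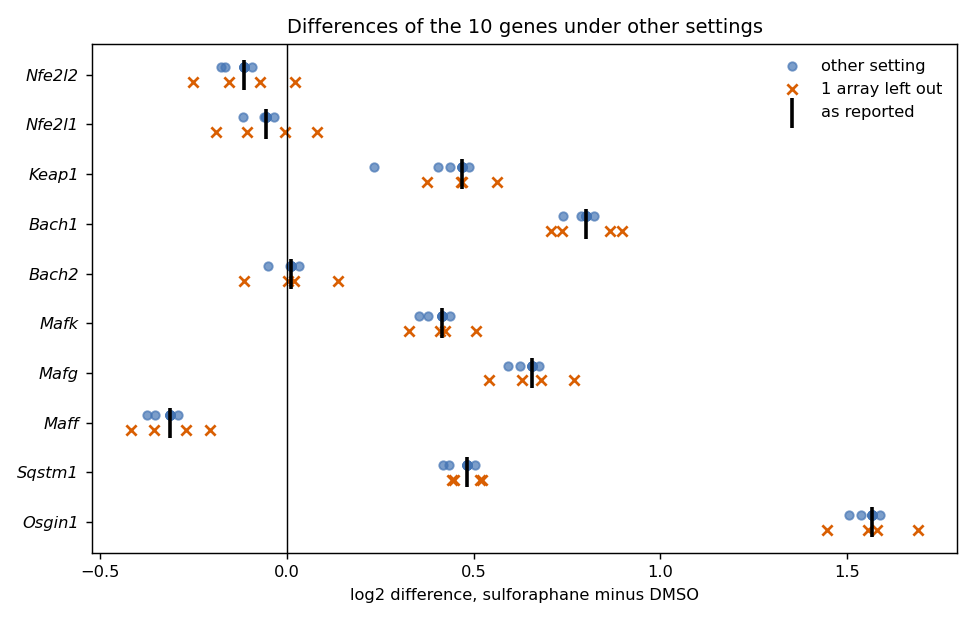
Log2 difference between groups (horizontal axis) of the 10 genes as reported (black bars), with 1 array left out (orange crosses) and under the other settings (blue points). Osgin1 stays between 1.45 and 1.69 and Bach1 between 0.71 and 0.90, Keap1 has a low point of 0.23 with the mean of its probe sets, and Nfe2l2, Nfe2l1 and Bach2 lie on both sides of 0.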

How the data were processed

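Total RNA was labelled with biotin and hybridised to Affymetrix arrays, 1 for each of 4 samples, per the labels' protocols. The deposited values are log2 signals. The submitters' processing notes name R 2.15.1 and RMA, a method that corrects background, makes the arrays' distributions equal and combines the probes of a probe set. The deposited distributions were not fully equal, with an interquartile range of 3.41 on DMSO replicate 1 and 3.61 to 3.62 on the others. The table does not state the log base, which was taken to be 2 since RMA gives that scale and the values fit it. No source used here gives filters. The number of arrays limits the precision.

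Of 41345 probe sets, 23521 had exactly 1 symbol in the platform annotation, 1814 had several and 16010 were not listed. Entrez identifiers tied 23328 of the first kind to RefSeq names (GRCm38.p6). Each gene took its probe set with the highest mean. The test covered the 14652 genes whose mean exceeded 2.91 on the log2 scale, the 40th percentile of probe sets. limma 3.58.1 (lmFit, eBayes) in R 4.3.3 fitted sulforaphane against DMSO with 2 residual and 4.02 prior degrees of freedom, two-sided, adjusted by Benjamini-Hochberg over all genes, threshold 0.05. Errors are moderated SE. The code was checked on simulated arrays with known changes, whose noise was drawn from the fitted model. Those arrays had no shift of a single array, so the check does not vouch for the calls here.

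The members, lists and settings were chosen with earlier results of these data known. The text names every member, up to 4 genes per pathway list by unadjusted p, and the 5 genes nearest to a called member. Settings tried were intensity filters, scalings, probe set choices, a replicate block, variance options and each array left out. Protein sequences were not used here. Figures were drawn with matplotlib 3.10.9.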

Additional observations from a re-analysis of the deposited data

How the results depend on the processing

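Over all genes, 19 were called as reported, against 138 with the filter at the 60th percentile, 106 with a second quantile normalization, 34 with the mean of probe sets, 249 with an intensity trend, 143 with each array centred on the genes tested (chosen after seeing the data) and 8 with the replicate block. Of the 5 genes nearest to Osgin1, the block left Frat1 (adjusted p = 0.051), Proz (0.051) and Eid3 (0.068) above the threshold, while Osgin1 stayed under it (0.043). The called members were Osgin1 alone as reported and 2 (Osgin1 and Bach1) with the 60th percentile filter, the second quantile normalization and the centring on genes tested. With the intensity trend they were 4 (also Mafg and Sqstm1). Of NRF2 targets 1 was called as reported and 7, 4, 2, 10 and 6 with the 60th percentile filter, second quantile normalization, mean of probe sets, intensity trend and centring on genes tested. Of autophagy partners 2 were called with the trend. With any array left out, 0 genes, 0 members and 0 targets were called. The cause of these shifts was not tested.

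With single arrays left out, some uncalled differences changed sign: Nfe2l2 ran from -0.25 to 0.022, Nfe2l1 from -0.19 to 0.081, Bach2 from -0.11 to 0.14, Nfe2l3 from -0.26 to 0.27, Nfe2 from -0.20 to 0.20, Fbxo22 from -0.027 to 0.25, Mafa from -0.016 to 0.79 and Vcp from -0.032 to 0.16. Median centring gave Nfe2 0.018, the mean of probe sets gave Vcp -0.00074, and centring on genes tested gave Bach2 -0.051 and Nfe2l3 -0.056. Nothing in the labels says that equal replicate numbers pair the samples, and the deviations of same-numbered arrays correlated at -0.081 across 14652 genes, which are not independent. Signal over background limits Bach2 and Nfe2l3, both near the array median.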

Other observations

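A probe set annotated to both Bach2 and the antisense gene Bach2os read 3.70 and 3.19 with DMSO and 3.08 and 3.43 with sulforaphane. Its groups overlapped (difference -0.19), as did those of the probe set of Bach2 alone. The signals of the 2 genes cannot be told apart in the shared probe set.

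NRF2 targets with and without the ARE core in a promoter window gave nearly the same median difference. Of the targets tested that had a promoter in the table, 11 held the core, with a median of 0.35 and 9 higher without overlap, and 18 did not, with a median of 0.34 and 12 higher without overlap. Among all genes tested, the 1906 with the core had a median of 0.027 and 27.8% higher without overlap, against 0.017 and 23.7% in the 9587 without it. These shares were not tested, and the window covers only the bases next to the start.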
